A study of Mus musculus with 8 samples.

Results

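Apoptotic cell uptake was described here through 9 genes, the phosphatidylserine receptor Timd4, the receptor kinases Axl and Mertk, their ligands Gas6 and Pros1, the bridging protein Mfge8, the receptors Lrp1 and Cd300lf, and the engulfment adaptor Elmo1. They were taken by symbol from a table of 23469 genes, and all 9 were found. Of them 8 reached a mean of 1 TPM (transcript abundance per length, scaled to a fixed total per library) and entered the test across 8801 genes, and Elmo1 did not. The libraries were bulk Smart-seq2 RNA-seq of macrophages sorted from malignant ascites, 4 of ascites-enriched embryonic macrophages (AeEM) and 4 of ascites-enriched monocyte-derived macrophages (AeMM). All came from female C57BL/6 mice of the Ms4a3TdT genotype (Ms4a3Cre with RosaTdT), which were injected intraperitoneally with ID8 cells, a mouse ovarian surface epithelial tumour line, at 4 to 5 weeks of age and sampled 65 days later, with no other treatment. In these mice Cre is driven by Ms4a3, a gene of granulocyte-monocyte progenitors, and its progeny keep tdTomato. AeMMs are therefore the tdTomato-positive and AeEMs the tdTomato-negative cells of a CD11b and F4/80 macrophage gate. The embryonic origin was thus read from the lack of a label, and an unlabelled cell of another origin would fall in the same gate.

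Dying cells expose phosphatidylserine on their outer membrane, and macrophages bind it either directly or through a soluble bridge. TIM and CD300 receptors bind the lipid itself, whereas Gas6 and protein S (Pros1) bind it through a vitamin K-dependent domain and present it to the TAM kinases Tyro3, Axl and Mertk, and Mfge8 links it to integrins. Binding is followed by actin-driven engulfment, in which the ELMO and DOCK proteins activate Rac. Tim4 is known as a receptor of long-lived resident macrophages of the peritoneal cavity.

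The sequences upstream of 2 pairs of genes are shown because the levels of Axl and Mertk, and those of Timd4 and Mfge8, ran most closely together over the libraries among pairs of the 9 genes. Each is the window of 250 bases before the RefSeq start, read 5′ to 3′ on the gene's own strand of GRCm38.p6. Timd4 is at chr11:46810549-46810798 (plus strand), Mfge8 at chr7:79149061-79149310 (minus), Axl at chr7:25788734-25788983 (minus) and Mertk at chr2:128698665-128698914 (plus). Capitals mark matches to any of 7 short motifs searched on both strands.
Timd4: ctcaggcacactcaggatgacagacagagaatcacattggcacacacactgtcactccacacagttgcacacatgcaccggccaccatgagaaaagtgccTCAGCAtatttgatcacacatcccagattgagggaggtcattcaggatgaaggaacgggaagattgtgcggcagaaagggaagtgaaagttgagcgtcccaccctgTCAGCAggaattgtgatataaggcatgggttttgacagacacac
Mfge8: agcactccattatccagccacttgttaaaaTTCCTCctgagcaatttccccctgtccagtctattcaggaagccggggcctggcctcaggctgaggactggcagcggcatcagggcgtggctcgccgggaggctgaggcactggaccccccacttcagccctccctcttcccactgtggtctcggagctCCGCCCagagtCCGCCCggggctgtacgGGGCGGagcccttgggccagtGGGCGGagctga
Axl: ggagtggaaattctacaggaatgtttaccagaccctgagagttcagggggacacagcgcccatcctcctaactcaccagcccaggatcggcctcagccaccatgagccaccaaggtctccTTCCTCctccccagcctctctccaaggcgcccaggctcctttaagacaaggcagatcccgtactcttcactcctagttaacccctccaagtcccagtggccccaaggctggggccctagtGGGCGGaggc
Mertk: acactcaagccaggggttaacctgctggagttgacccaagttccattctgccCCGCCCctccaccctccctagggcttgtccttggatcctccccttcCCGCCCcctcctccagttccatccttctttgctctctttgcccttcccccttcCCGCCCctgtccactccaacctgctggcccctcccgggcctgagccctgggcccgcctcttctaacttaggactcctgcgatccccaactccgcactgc

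The motifs were the PU.1 core GAGGAA, the MAF core TGCTGA, the GATA core AGATAA, the AP-1 site TGANTCA, the E-box CACGTG, the GC box GGGCGG and the TATA box TATAAA. Some can share bases where copies lie close together. Among 32851 windows of this length, 32.7% held a GC box, 23.3% the PU.1 core, 16.1% the MAF core and 12.4% the TATA box. The GATA core was in 9.99%, the AP-1 site in 6.75% and the E-box in 6.02%. A GC box was found upstream of 7 of the 9 genes, all but Timd4 and Cd300lf. The PU.1 core was found upstream of Axl, Mfge8 and Cd300lf, the TATA box upstream of Cd300lf and Elmo1, and the MAF core upstream of Timd4 only, in 2 places. No GATA core, AP-1 site or E-box was in the windows of the 9 genes. Within the pairs, Axl and Mertk shared the GC box, while Timd4 and Mfge8 shared none of the 7. The Timd4 window had 50% G and C with 4 CG steps and the Mfge8 window 65.2% with 12, against a median of 52.4% with 6 over all windows. These matches are letters in a window and were not tested as binding sites.

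Values are log2(TPM + 1) as deposited, and TPM are the same values transformed back. TPM summed to 958862 to 974303 per library, and 8498 to 8753 genes reached 1 TPM. The depth is unknown because read counts were not used here, so no counting interval is given. The mean of a gene barely differed between replicate 1, replicate 2, and replicates 3 and 4 together, called the 3 sets here (median range between set means 0.01 over the genes tested, at most 0.09 for the 9 genes). The values had thus been adjusted between sets, which the unpaired test does not take into account, and a second limma fit that includes each library's set (the set-adjusted fit) is given beside it. Macrophage markers were present in all libraries. Adgre1 (F4/80) was at 16.3 to 17.6 TPM in AeEMs and 18.4 to 19.6 TPM in AeMMs. Csf1r was at 156 to 185 TPM in AeEMs and 190 to 215 TPM in AeMMs. Cd68 went the other way, at 3751 to 3925 TPM in AeEMs and 3367 to 3715 TPM in AeMMs. Of 7 macrophage markers tested, 6 had a lower mean in AeEMs and 1 a higher mean (median log2 difference -0.16). None of them passed the threshold given below.

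Of the 8 genes tested, Axl was lower in AeEMs and the other 7 did not pass the threshold, a Benjamini-Hochberg adjusted p of 0.05 in unpaired limma. Over all genes tested, 1.16% were called lower in AeEMs and 1.25% higher. In the set-adjusted fit none of the 8 passed, and over all genes 0.0568% were then called lower and 0.102% higher. Unadjusted limma p-values were under 0.05 for 5 of the 8 in the unpaired fit, against 18.03% of all genes tested, and for 4 in the set-adjusted fit, against 9.64%. Timd4 was higher in all 4 AeEM libraries than in any AeMM library, and Axl, Mertk and Gas6 were lower without overlap. Over all genes tested, 5.72% lay above and 6.53% below in this way. In bulk samples fewer cells that express a gene and less RNA per cell cannot be told apart.

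**Figure D1:**
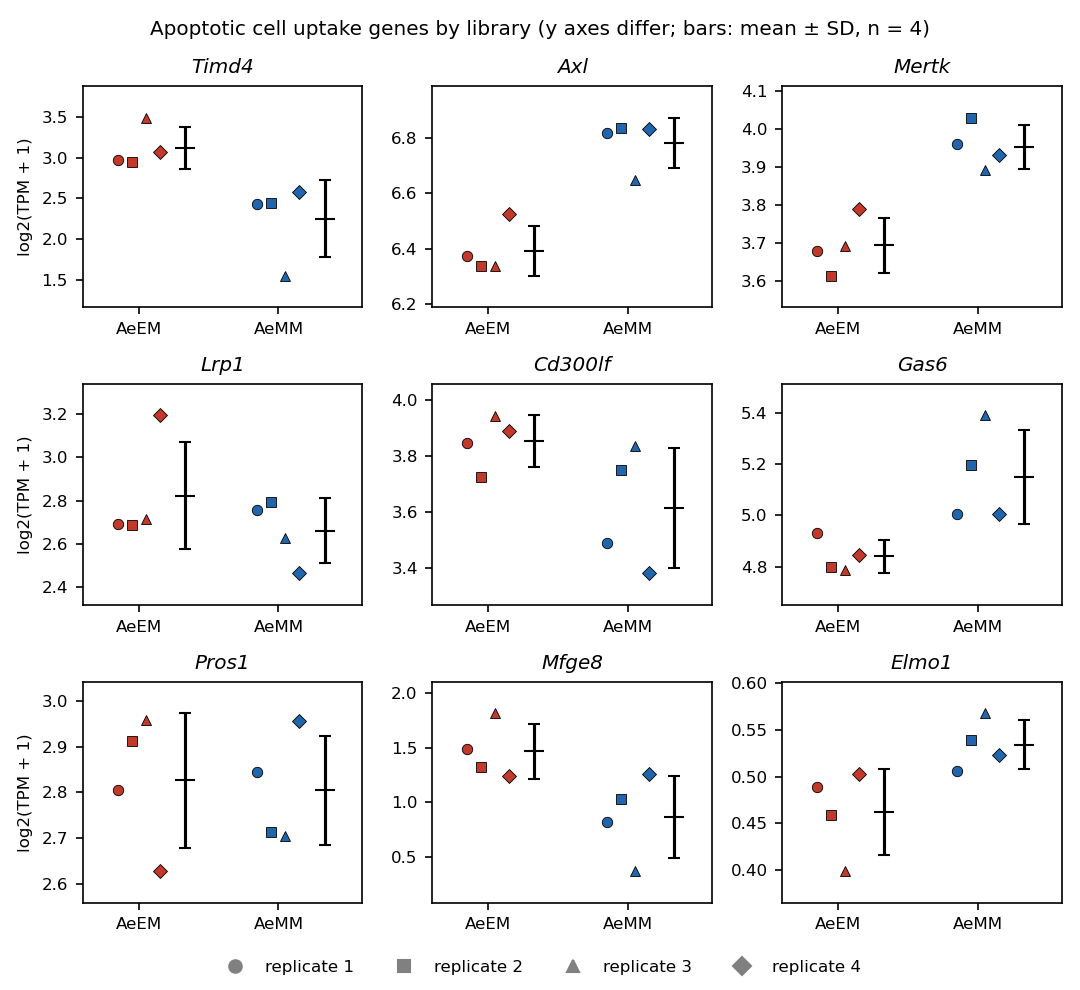
Level of each of the 9 genes in log2(TPM + 1) in the 4 AeEM (red) and 4 AeMM (blue) libraries, with marker shapes for the replicate number and bars for the mean ± SD. Timd4 is higher in AeEMs and Axl, Mertk and Gas6 are higher in AeMMs without overlap, while Pros1 and Lrp1 overlap.

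Among the receptors, Timd4 (Tim4, a direct phosphatidylserine receptor; ENSMUSG00000055546, chromosome 11 from 46810800 to 46844332, plus strand of mm10) stood at 2.97, 2.94, 3.49 and 3.07 in AeEM replicates 1 to 4. In AeMM replicates 1 to 4 it stood at 2.43, 2.44, 1.55 and 2.58 log2(TPM + 1). AeMM replicate 3 was the lowest library and AeEM replicate 3 the highest, and the groups did not overlap. On the TPM scale this is 6.68 to 10.2 against 1.94 to 5.0. The difference, AeEM minus AeMM, was 0.87 on the log2 scale, or 1.82-fold in TPM + 1 (95% interval 0.33 to 1.40, unpaired limma adjusted p = 0.096, and 0.38 in the set-adjusted fit). Without AeMM replicate 3 it was 0.63 (limma adjusted p = 0.084). It depends on the pseudocount, and was 1.03 with 0.1 and 0.52 with 5 in place of 1.

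Axl (a TAM kinase that mainly binds Gas6; ENSMUSG00000002602, chromosome 7 from 25757273 to 25788705, minus strand) stood at 6.37, 6.34, 6.34 and 6.53 in AeEM replicates 1 to 4. In AeMM replicates 1 to 4 it stood at 6.82, 6.83, 6.65 and 6.83. The AeEM libraries held 79.7 to 91.1 TPM and the AeMM libraries 99.2 to 113 TPM, with no overlap. AeMM replicate 3 was again the library apart, below the other three of its group. Axl fell by 0.39 on the log2 scale in AeEMs, so that it was 1.31-fold higher in AeMMs (standard error 0.07, 95% interval of the difference -0.56 to -0.22, unpaired limma adjusted p = 0.031). The adjusted p was 0.27 in the set-adjusted fit and 0.23 with the replicate number as a block. It also missed the threshold on leaving out AeEM replicate 1, 2 or 3 and on leaving out AeMM replicate 1, 2 or 4 (limma adjusted p of 0.057 to 0.116).

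Mertk (the TAM kinase of macrophages that binds both ligands; ENSMUSG00000014361, chromosome 2 from 128698956 to 128802894, plus strand) ran close to Axl. It stood at 3.68, 3.61, 3.69 and 3.79 in AeEM replicates 1 to 4 and at 3.96, 4.03, 3.89 and 3.93 in AeMM replicates 1 to 4. All AeEM libraries were below all AeMM libraries, at 11.2 to 12.8 against 13.8 to 15.3 TPM. The difference was -0.26 (95% interval -0.44 to -0.08, unpaired limma adjusted p = 0.134, and 0.55 in the set-adjusted fit). The last TAM kinase, Tyro3, was below 0.1 TPM in every library.

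Lrp1 (a large endocytic receptor that is paired with calreticulin in uptake; ENSMUSG00000040249, chromosome 10 from 127538161 to 127621148, minus strand) did not separate the groups. It stood at 2.69, 2.69, 2.72 and 3.19 in AeEM replicates 1 to 4 and at 2.76, 2.79, 2.63 and 2.46 in AeMM replicates 1 to 4. AeEM replicate 4 was well above the other libraries, which overlapped. The difference of 0.16 (95% interval -0.16 to 0.49, unpaired limma adjusted p = 0.62) was 0.04 without AeEM replicate 4.

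Cd300lf (a CD300 receptor for phosphatidylserine with inhibitory tyrosine motifs; ENSMUSG00000047798, chromosome 11 from 115116214 to 115133992, minus strand) overlapped between groups too. It stood at 3.85, 3.73, 3.95 and 3.89 in AeEM replicates 1 to 4 and at 3.49, 3.75, 3.84 and 3.38 in AeMM replicates 1 to 4. AeMM replicates 1 and 4 were below all AeEM libraries, and AeMM replicates 2 and 3 were within their range. The difference was 0.24 (95% interval -0.03 to 0.51, unpaired limma adjusted p = 0.34).

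**Figure D2:**
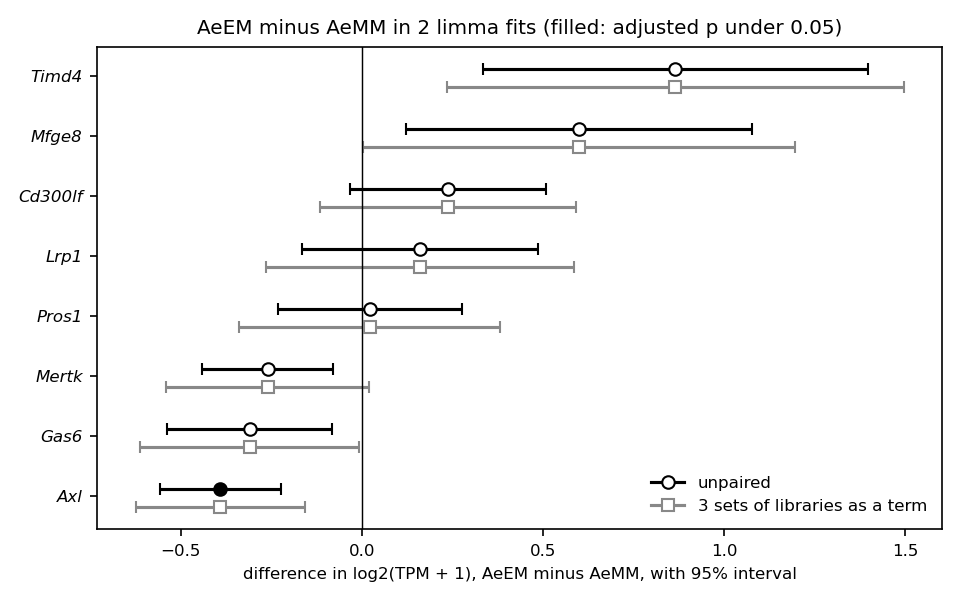
Difference in log2(TPM + 1), AeEM minus AeMM, with its 95% interval for the 8 genes tested, in the unpaired limma fit (black circles) and in the set-adjusted fit (grey squares). Filled symbols have an adjusted p under 0.05, which holds for Axl in the unpaired fit, and the intervals of Timd4, Axl, Gas6 and Mfge8 leave out 0 in both fits.

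Among the bridging proteins, Gas6 (the TAM ligand shared by Axl and Mertk; ENSMUSG00000031451, chromosome 8 from 13465374 to 13494490, minus strand) was on the same side as its receptors. It stood at 4.93, 4.80, 4.79 and 4.84 in AeEM replicates 1 to 4 and at 5.01, 5.19, 5.39 and 5.0 in AeMM replicates 1 to 4. The groups did not overlap, although AeEM replicate 1 and AeMM replicate 4 were close, and AeMM replicate 3 was the highest. The levels were 26.6 to 29.5 TPM in AeEMs and 31.1 to 40.9 TPM in AeMMs. The difference was -0.31 (95% interval -0.54 to -0.08, unpaired limma adjusted p = 0.151, and 0.51 in the set-adjusted fit), and -0.23 without AeMM replicate 3. Of the exonic bases of Gas6, 34 (1.33%) overlap Tmem255b on the opposite strand.

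Pros1 (protein S, the other TAM ligand and an anticoagulant; ENSMUSG00000022912, chromosome 16 from 62854307 to 62929346, plus strand) showed no separation. It stood at 2.81, 2.91, 2.96 and 2.63 in AeEM replicates 1 to 4 and at 2.84, 2.71, 2.7 and 2.96 in AeMM replicates 1 to 4. The groups covered the same range. The difference of 0.02 had a 95% interval of -0.23 to 0.28 (unpaired limma adjusted p = 0.95).

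Mfge8 (lactadherin, which bridges phosphatidylserine to integrins; ENSMUSG00000030605, chromosome 7 from 79133768 to 79149060, minus strand) was close to the 1 TPM limit. It stood at 1.49, 1.32, 1.82 and 1.24 in AeEM replicates 1 to 4 and at 0.81, 1.03, 0.37 and 1.25 in AeMM replicates 1 to 4. AeMM replicate 4 was just above AeEM replicate 4, and the other AeMM libraries were below all AeEM libraries. The levels were 1.36 to 2.52 TPM in AeEMs and 0.288 to 1.38 TPM in AeMMs. The difference was 0.60 (95% interval 0.12 to 1.08, unpaired limma adjusted p = 0.179, and 0.52 in the set-adjusted fit), and 0.43 without AeMM replicate 3. Near 1 TPM it depends on the pseudocount, and was 1.09 with 0.1 and 0.21 with 5 in place of 1.

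Elmo1 (an adaptor that with DOCK proteins activates Rac; ENSMUSG00000041112, chromosome 13 from 20090596 to 20608353, plus strand) was below the filter and was not tested across genes. It stood at 0.49, 0.46, 0.40 and 0.50 in AeEM replicates 1 to 4 and at 0.51, 0.54, 0.57 and 0.52 in AeMM replicates 1 to 4, or 0.318 to 0.417 and 0.42 to 0.483 TPM. All AeEM libraries were below all AeMM libraries by a narrow margin, at a level under 1 TPM throughout, and the difference was -0.07. Of its exonic bases, 3.2% overlap the antisense gene Gm32036. Elmo2, its paralogue, was more abundant, at 3.40 in AeEMs and 3.46 in AeMMs (unpaired limma adjusted p = 0.84).

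A two-sided permutation test of single genes was run over the 70 ways to choose 4 of 8 libraries. It gave its smallest possible p, 0.0286, for Timd4, Axl, Mertk, Gas6 and Elmo1. Any gene whose groups do not overlap gets this value, so it restates the lack of overlap. Over all genes tested, 5.72% lay above and 6.53% below without overlap. The values were adjusted between the 3 sets, so the libraries are not interchangeable over all 70 ways, and these p-values are not exact. The permutation p was 0.057 for Mfge8, 0.114 for Cd300lf, 0.43 for Lrp1 and 0.86 for Pros1. Over the 24 ways that keep the 3 sets balanced, the smallest permutation p is 0.0833, and the same 5 genes had that value.

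Within the sets, Timd4, Mfge8, Axl, Mertk, Gas6 and Elmo1 kept 1 direction in all 3. For Timd4, Axl, Mertk, Gas6 and Elmo1 this follows from the lack of overlap between the groups and adds nothing to it. The share of all genes that keep 1 direction was not counted. For replicate 1, replicate 2 and the pair of replicates 3 and 4, the difference of Timd4 was 0.54, 0.50 and 1.21, in this order. That of Mfge8 was 0.67, 0.29 and 0.72, the last from 1.45 for replicate 3 and -0.01 for replicate 4. That of Axl was -0.44, -0.50 and -0.31. Mertk, at -0.28, -0.42 and -0.17, followed Axl in order, whereas Gas6 had -0.08, -0.40 and -0.38. Lrp1 (-0.06, -0.11 and 0.41), Pros1 (-0.04, 0.20 and -0.04) and Cd300lf (0.36, -0.02 and 0.31) changed sign between sets.

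**Figure D3:**
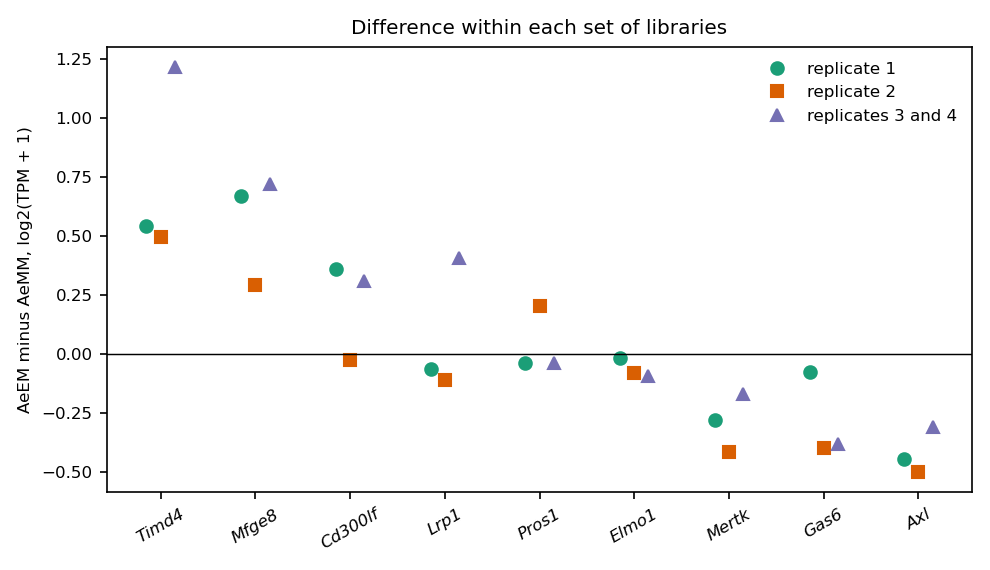
Difference in log2(TPM + 1), AeEM minus AeMM, of each of the 9 genes within replicate 1, replicate 2, and replicates 3 and 4 together. Timd4 and Mfge8 are above 0 and Axl, Mertk, Gas6 and Elmo1 below 0 in all 3 sets, and Lrp1, Pros1 and Cd300lf lie on both sides.

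TPM are per transcript length, so levels of different genes can be set side by side within a library. By mean TPM over the 8 libraries the order was Axl at 96.2, Gas6 at 31.2, Mertk at 13.2, Cd300lf at 12.4, Pros1 at 6.06, Timd4 at 5.86, Lrp1 at 5.75, Mfge8 at 1.33 and Elmo1 at 0.413. Axl was above Gas6, Gas6 above Mertk, Cd300lf above Pros1 and Lrp1 above Mfge8 in 8 of 8 libraries. The neighbours Mertk and Cd300lf changed places with the group. Mertk was higher than Cd300lf in 4 of 4 AeMM libraries and in 0 of 4 AeEM libraries. Pros1 and Timd4 did likewise, with Pros1 higher in 4 of 4 AeMM libraries and Timd4 higher in 4 of 4 AeEM libraries. The adjustment between sets ties the AeEM and AeMM values of a gene within each set. For genes with close means, a higher place in AeEMs thus tends to go with a lower place in AeMMs. The libraries are therefore not independent outcomes, and these counts carry no test. Timd4 and Lrp1 did not have a fixed order (Timd4 higher in 3 of 4 AeEM libraries and 1 of 4 AeMM libraries).

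Ratios between genes are given as values with no test. Axl exceeded Mertk 6.69- to 7.09-fold in AeEMs and 7.16- to 7.92-fold in AeMMs, a narrow range over all 8 libraries. Gas6 exceeded Pros1 3.93- to 5.36-fold in AeEMs and 4.60- to 7.42-fold in AeMMs, so the 2 ranges overlapped. Mertk exceeded Timd4 1.16- to 1.73-fold in AeEMs and 2.85- to 7.15-fold in AeMMs, with no overlap. The upper end of 7.15 came from AeMM replicate 3, the library with the lowest Timd4.

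Likeness of pattern was described by Pearson's r over the 8 libraries on the log2 scale. The libraries share the adjustment between sets, which makes the AeEM and AeMM values of replicates 1 and 2 mirror images around the mean, so r carries no test. A difference between the groups that 2 genes share also raises r, so r does not show that they run together within a group. Axl and Mertk had an r of 0.97, and 0.98 without replicate 3 of both groups. Timd4 and Mfge8 had an r of 0.96, which was 0.90 without AeMM replicate 3 and 0.78 without replicate 3 of both groups. Timd4 and Gas6 ran opposite (r = -0.94, and -0.83 without replicate 3 of both groups). Among the 3088 genes that averaged 10 TPM or more, the 5 most like Timd4 were Pdia4, Dtymk, Cldnd1, Mcemp1 and Phf11d (r of 0.97 to 0.99), all with a positive difference and none past the threshold. Those most like Axl were the zinc transporter Slc39a1, the cathepsin inhibitor Cstb, the NADPH oxidase subunit Cybb, the TGF-beta receptor Tgfbr2 and Mertk (r of 0.97 to 0.99). Those most like Mertk were mt-Nd2, a mitochondrially encoded complex I subunit, the apolipoprotein Apoc2, the macrophage growth factor receptor Csf1r, Axl and Ubl5 (r of 0.97 to 0.99). Csf1r, with a difference of -0.28, did not pass (unpaired limma adjusted p = 0.082), whereas Apoc2 fell by 0.82 in AeEMs (unpaired limma adjusted p = 0.0033).

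**Figure D4:**
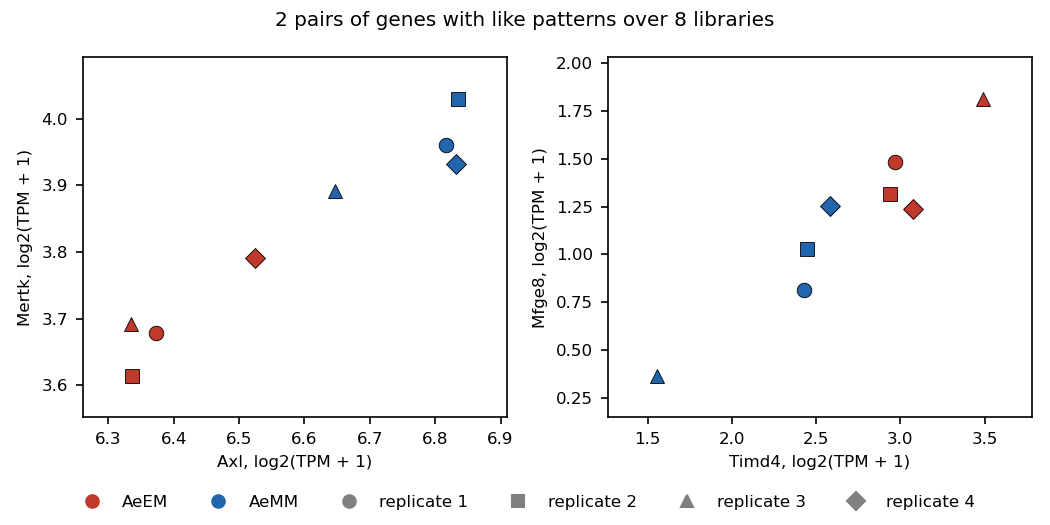
Levels in log2(TPM + 1) of Mertk against Axl (left) and of Mfge8 against Timd4 (right) in each library, AeEM in red and AeMM in blue, with marker shapes for the replicate number. Axl and Mertk lie near 1 line with the groups apart, and AeMM replicate 3 is at the low end of both Timd4 (1.55) and Mfge8 (0.37).

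Other genes of uptake were taken from lists by role. Apart from the 9 genes the lists held 130 genes, of which 93 were tested. In the unpaired fit 2 were higher in AeEMs (2.15%, against 1.25% of all genes tested) and 3 were lower (3.23%, against 1.16%). The other 88 did not pass, and the median difference was -0.05 against -0.01 over all genes tested. With median-of-ratios size factors 3 were higher and 1 was lower. In the set-adjusted fit none passed (13 with an unadjusted limma p under 0.05, a level that 9.64% of all genes tested reached). Among the other receptors for apoptotic cells, 1 of 13 tested fell, the scavenger receptor Stab1, by 0.70 (unpaired limma adjusted p = 0.0034, and 0.060 in the set-adjusted fit). The list's median difference was -0.11. Stab1 still passed on leaving out any 1 library (limma adjusted p of 0.0095 to 0.021). The remaining 12 tested genes of the list did not pass.

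Among relatives of the receptors, 1 of 6 tested CD300 genes fell, Cd300c2, by 0.28 from 8.61 in AeMMs to 8.32 in AeEMs (unpaired limma adjusted p = 0.025, and 0.28 in the set-adjusted fit). The other 5, Cd300lf among them, had positive differences, and the family's median was 0.12. Leaving out replicate 1, 2 or 4 of either group ended the call of Cd300c2 (limma adjusted p of 0.055 to 0.097). Of the TIM family, Havcr2 (Tim3) had a difference of 0.24 (unpaired limma adjusted p = 0.62), and Timd2 and Havcr1 were below 0.1 TPM in every library. None of 6 tested LDL receptor family genes passed, with Lrp6 at -0.19 and Sorl1 at 0.18.

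Among the other bridging proteins, 1 of 10 tested rose, galectin-3 (Lgals3), a lectin also known as a ligand of Mertk, by 0.42 to 9.32 in AeEMs against 8.89 in AeMMs (unpaired limma adjusted p = 0.0172, and 0.177 in the set-adjusted fit). It did not pass without replicate 1 or 2 of either group (limma adjusted p of 0.061 to 0.067). The list's median difference was 0.07. Of 6 tested genes that restrain uptake, 1 rose, the sialic acid receptor Siglecg, by 1.09 (2.25 against 1.16, unpaired limma adjusted p = 0.029, and 0.20 in the set-adjusted fit). Without replicate 1, 2 or 4 of either group Siglecg did not pass (limma adjusted p of 0.060 to 0.105). Sirpa, the receptor of the don't-eat-me signal Cd47, had a difference of -0.14 (unpaired limma adjusted p = 0.43). Of 15 tested genes of phagosome maturation, 1 fell, Cybb, the oxidase subunit of LC3-associated phagocytosis, by 0.42 (unpaired limma adjusted p = 0.026, and 0.25 in the set-adjusted fit). Cybb did not pass without replicate 1 or 2 of either group or AeMM replicate 4 (limma adjusted p of 0.060 to 0.098).

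In the remaining lists no gene passed. Of 12 engulfment genes tested, Rac2, a Rac GTPase of blood cells, had a difference of 0.27 (unpaired limma adjusted p = 0.080), the lipid exporter Abca1 one of -0.34 and Abca7 one of 0.22. Among 9 receptors for signals that dying cells release, 8 had a negative difference, with a median of -0.33. Over all 8801 genes tested, 4503 had a negative difference. P2ry12, a nucleotide receptor, had one of -0.54 (unpaired limma adjusted p = 0.098), S1pr2 one of -0.33 and Fpr1 one of -0.38. Of 10 nuclear receptors and targets engaged after uptake, 5 differences were positive and 5 negative, with Nr1h2 (LXR-beta) at 0.36, Ucp2 at 0.11 and Slc16a1 at -0.27. Of 7 genes of TAM shedding and signalling, 6 had a negative difference, among them Pik3r1 at -0.36 and the sheddase Adam10 at -0.21. Of 3 vitamin K cycle genes, which serve the carboxylation of Gas6 and protein S, Ggcx had -0.33, Vkorc1l1 0.24 and Vkorc1 0.10 (unpaired limma adjusted p of 0.46 to 0.78).

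**Figure D5:**
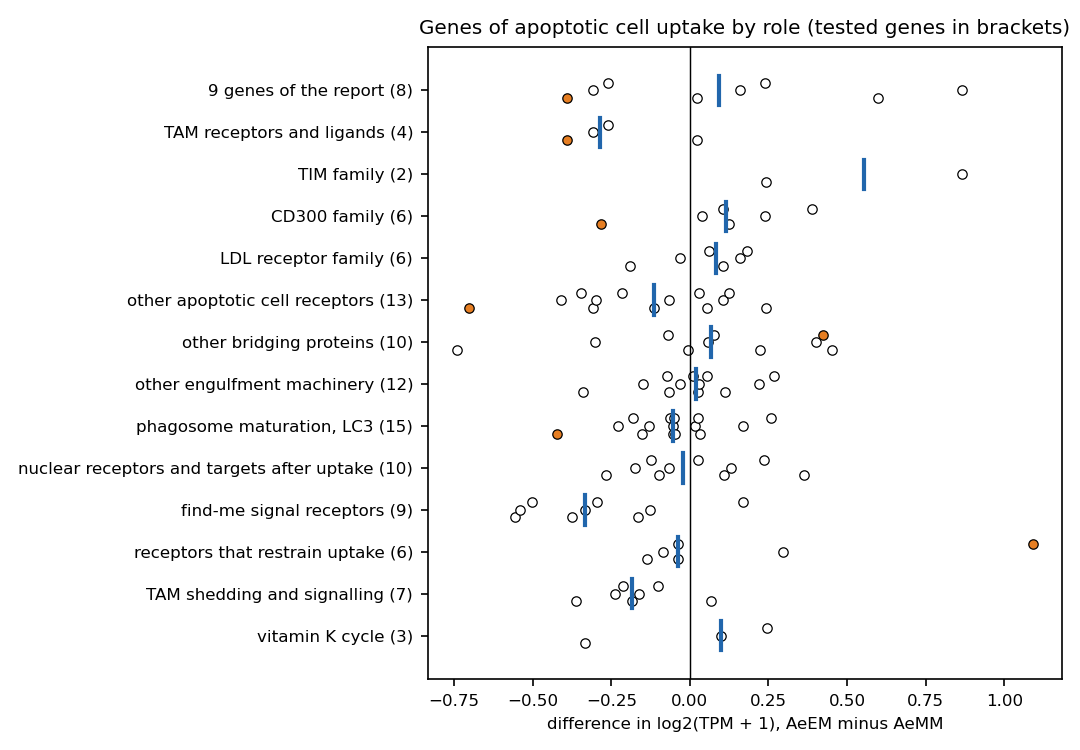
Difference in log2(TPM + 1), AeEM minus AeMM, of each tested gene in the lists by role, with blue bars for the list median and orange points for an adjusted p under 0.05 in unpaired limma. Stab1, Cd300c2, Cybb and Axl are the orange points below 0, and Siglecg and Lgals3 those above.

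Marker sums of dendritic cells, large peritoneal macrophages and neutrophils did not overlap between the groups, while those of monocytes, erythroid cells and mesothelial or epithelial cells did. The sort took cells negative for Ly6G, a neutrophil marker, and for Ly6C, a marker of classical monocytes. The 7 dendritic cell markers summed to 44.1 to 106 TPM in AeEMs and 6.29 to 13.4 TPM in AeMMs, in AeEMs mostly Cd209a. Of the 3 tested, Cd209a and Itgax rose (unpaired limma adjusted p of 0.0029 and 0.0109, and 0.0326 and 0.115 in the set-adjusted fit). The third, Ccr7, stood at 0.595 to 4.99 TPM in AeEMs and 0 to 1.67 TPM in AeMMs. It did not pass, with an unadjusted p under 0.05 in unpaired limma. The other 4 were not tested. Of these the defining Flt3 and Zbtb46 were at most 0.573 and 0.784 TPM, and Xcr1 and Clec9a at most 1.35 and 2.03 TPM. The 7 large peritoneal macrophage markers summed to 48.6 to 77.6 TPM in AeEMs and 30.004 to 44.2 TPM in AeMMs, with Alox15 as the largest part. The lowest sum was in AeMM replicate 3, where Alox15 (16.2 TPM), Timd4 and Mfge8 were lowest too. Other markers of the list differed, with Icam2 at its highest AeMM value there (9.53 TPM) and Prg4 lowest in AeMM replicate 4 (1.31 TPM). None of the 4 markers tested passed. Gata6, the defining factor of these macrophages, was at 0.212 to 0.363 TPM, with 1 and the same value, 0.228, in 3 libraries of replicates 3 and 4. The 5 neutrophil markers summed to 18.7 to 22.6 TPM in AeEMs and 32.0 to 46.0 TPM in AeMMs, with S100a8 lower in AeEMs (unpaired limma adjusted p = 0.0044, and 0.0605 in the set-adjusted fit), S100a9 at no more than 1.02 TPM and Cxcr2 below 0.1 TPM. Monocyte markers summed to 166 to 257 TPM in AeEMs and 142 to 195 TPM in AeMMs, and Ly6c2 was lower in AeEMs (unpaired limma adjusted p = 0.048, and 0.25 in the set-adjusted fit). Erythroid markers summed to 7412 to 12294 TPM in AeEMs and 3975 to 10016 TPM in AeMMs. B cell markers, mostly Cd79b, summed to 34.3 to 84.6 TPM in AeEMs and 65.2 to 76.3 TPM in AeMMs. Platelet and megakaryocyte markers, mostly Pf4, summed to 4863 to 6067 TPM in AeEMs and 4954 to 5382 TPM in AeMMs. The part of these cells in the differences of Timd4, Mfge8, Axl, Mertk and Gas6 was not tested. Fibroblast and endothelial markers, whose cells also make Gas6 and Axl, summed to at most 1.56 TPM, with Col1a1, Col3a1, Pdgfra and Cdh5 below 0.1 TPM in every library. Mesothelial and epithelial markers summed to 3.88 to 6.97 TPM in AeEMs and 4.23 to 6.58 TPM in AeMMs.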

How the data were processed

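The authors sorted macrophages as live CD45+, Ly6G-, Siglec F-, Ly6C-, F4/80+, CD11b+ cells, split them by tdTomato and made Smart-seq2 libraries. Reads were trimmed by fastp, aligned to mm10 by STAR 2.7.2a and assigned to genes by featureCounts of Subread. The deposited values are log2(TPM + 1), adjusted between the 3 sets of libraries. The conversion, the adjustment, the annotation and strandedness are not given in the sources used here.

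AeEM was compared with AeMM (n = 4 each) by limma 3.58.1 in R 4.3.3 across the 8801 genes that averaged 1 TPM or more, unpaired, with a mean-variance trend and Benjamini-Hochberg adjustment. The paper lists an unpaired limma test but does not tie it to these libraries. The fits were tested on simulated data first. Positions came from GENCODE M21 and upstream windows from RefSeq (GRCm38.p6), where all 9 genes matched.

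The 9 genes and all lists were chosen with earlier results of these data known. From each list the text names genes past the threshold, up to 3 in each direction, or where none passed up to 3 with the smallest p, and 1 such gene is not reported here. Elmo2, Havcr2, Sirpa, Csf1r and Apoc2 are also named with values, beside marker genes and genes below 0.1 TPM. Motifs were chosen after the values were seen. Alternatives used a pseudocount of 0.1 or 5, no filter or one of 5 TPM, quantile normalization, median-of-ratios size factors, TPM recomputed without mitochondrial and ribosomal genes, or no trend, added the sets or the replicate number as a term, kept replicates 3 and 4 only, or left out each library. Nothing states that equal replicate numbers share a mouse, and because the adjustment ties them a check of pairing is void. The labels number them as biological replicates, and the paper's captions for its heat maps of AeEMs and AeMMs give 4 mice. With 8 libraries the groups would then share mice, which the unpaired fit leaves out. No source ties a library to a mouse, so p-values measure the spread between these libraries.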

Additional observations from a re-analysis of the deposited data

Results flagged for a closer look

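Within groups of 4 libraries, 3 of 18 gene and group combinations held a library past Dixon's 95% critical value. The value compares the library's gap to its neighbour with the group's range. For 4 independent values chance gives about 1 in 20. The adjustment between sets ties the values of replicates 1 and 2, so this rate does not hold here. All 3 flagged values are in replicates 3 and 4. Timd4 in AeMM replicate 3 was at 1.55 log2(TPM + 1), below the rest of its group. Axl in AeMM replicate 3 was at 6.65, also below the rest of its group. Lrp1 in AeEM replicate 4 was at 3.19, above the rest of its group.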

How the results depend on the processing

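Of 151 values of the 8 tested genes under 19 alternatives, 135 kept their direction and their side of the threshold. Axl kept its direction in all 19, from -0.44 to -0.31, but passed in only 8. Its limma adjusted p was 0.063 with quantile normalization, 0.071 without a trend, 0.23 with the replicate block and 0.83 in replicates 3 and 4 only. Timd4, Mertk, Gas6, Mfge8, Lrp1 and Cd300lf kept their direction and passed in none, with no value for Mfge8 under a filter of 5 TPM. Pros1 turned to -0.037 in replicates 3 and 4 only and ran from -0.022 to 0.088 with 1 library left out. Elmo1 was -0.20 with a pseudocount of 0.1 and -0.02 with one of 5, and Lrp1 was 0.10 with one of 5.

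The count of the 9 genes called lower was 1, and 0 with the 3 sets as a term, the replicate block, quantile normalization, no trend or replicates 3 and 4 only, and 0 to 1 with 1 library left out. Of the 93 other uptake genes tested, 2 were called higher and 3 lower. These counts were 0 and 0 with the sets as a term, the replicate block or replicates 3 and 4 only, 1 and 3 without a filter, 1 and 5 with a filter of 5 TPM, and 1 and 1 without a trend. With median-of-ratios size factors they were 3 and 1. With 1 library left out they ran from 0 to 2 and from 1 to 4. Over all genes, 212 were called, 14 with the sets as a term, 5 with the replicate block, 136 without a trend, 73 to 203 with 1 library left out and 0 in replicates 3 and 4 only (limma, 566 with an unadjusted p under 0.05). The cause of these changes was not tested.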
